A study of Mus musculus with 24 samples.

Results

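Genes of meiotic chromosome synapsis and recombination were followed in testes from wild-type (WT) and Thumpd1 knockout (KO) mice, namely Sycp1, Sycp2, Sycp3, Syce1, Spo11, Dmc1, Hormad1, Mlh3, Prdm9 and Meiob. They were taken by symbol, 10 of the 55450 genes in the deposited table. The table held 24 RNA-seq libraries, 4 WT and 4 KO from each of testes, liver and cerebellum, and the somatic tissues served as background. Mice were 6 to 12 weeks old. The WT animals carried an intact Thumpd1 gene, and the KO animals came from C57BL/6N zygotes that received Cas9 protein with guide RNAs to exons 1 and 4 of Thumpd1. The line was kept by backcrossing on a C57/BL6 background. Controls were in general littermates of the same age, and which founder line gave each KO library is not given in the sources used here. Thumpd1 is the adaptor that brings the acetyltransferase Nat10 to leucine and serine tRNAs, where the enzyme acetylates a cytidine.

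In meiotic prophase, paired chromosomes exchange DNA. Each chromosome folds along a protein axis built with Sycp2, Sycp3 and Hormad1. Prdm9 marks recombination hotspots by methylating histone H3, and Spo11 cuts the DNA there. Dmc1, the meiosis-specific strand-exchange recombinase, pairs the broken end with the homologous chromosome, and Meiob binds single-stranded DNA during this step. Sycp1 joins the axes of the homologs like the teeth of a zipper, with Syce1 in the central element of this synaptonemal complex. Mlh3 acts at the sites that become crossovers. In an adult testis these genes are read mainly in spermatocytes, so their level in bulk RNA follows both the number of such cells and the RNA in each. Levels are shares of a library, so they also depend on the RNA of other cells. Fewer cells of a type, less RNA per cell and a change in other cells cannot be told apart here.

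Total counts were 27273231 to 36621604 per testes library, 18145725 to 37889615 in liver and 16353797 to 24728845 in cerebellum. Levels are given as CPM, the counts of a gene scaled to each library's total, which does not correct for gene length. Thumpd1 itself fell from 25.2 ± 0.840 CPM in WT testes to 0.955 ± 0.200 CPM in KO testes (SD, n = 4 each), and no KO library of the other tissues held more than 4 Thumpd1 counts. Hepatocyte markers summed to at most 2.43 CPM and cerebellar neuron markers to at most 0.384 CPM in testes, against a pachytene spermatocyte sum of 4779 to 5531 CPM. The KO testes libraries did not form an even group: replicates 7 and 8 received quality weights of 0.214 and 0.268 in limma, against 0.894 to 2.65 for the other 6 libraries. Calls of the testes comparisons that change without these 2 libraries are given both ways.

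The axis genes lie on different chromosomes of mm10. Sycp2 (ENSMUSG00000060445.11) spans chr2:178345293-178407685 on the minus strand, Sycp3 (ENSMUSG00000020059.9) chr10:88459569-88473236 on the plus strand, and Hormad1 (ENSMUSG00000028109.14) chr3:95559677-95587671 on the plus strand. Sycp3 is the only member whose exons overlap those of another gene, with 660 bases shared with Chpt1 on the opposite strand, and the strand setting used in counting is not given in the sources used here. In WT liver, where Chpt1 was at 147 CPM, Sycp3 was at 0.229 CPM. Sycp1 (ENSMUSG00000027855.13) spans chr3:102818499-102936100 and Syce1 (ENSMUSG00000025480.5) chr7:140777229-140787852, both on the minus strand. Spo11 (ENSMUSG00000005883.15) spans chr2:172977700-172993576 on the plus strand. Prdm9 (ENSMUSG00000051977.16, chr17:15543079-15564354, minus strand) and Meiob (ENSMUSG00000024155.8, chr17:24804289-24839788, plus strand) share a chromosome, and 354 bases separate the end of Meiob from the start of Hagh on the same strand. Dmc1 (ENSMUSG00000022429.11) spans chr15:79561497-79605109 and Mlh3 (ENSMUSG00000021245.15) chr12:85234520-85270599, both on the minus strand.

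RefSeq promoter sequence of GRCm38.p6, the assembly behind mm10, running from 250 bases before to 50 bases after a transcript start, was available for 8 of the 10 genes and was not used here for Spo11 and Meiob. The promoters of Hormad1, Sycp3 and Sycp1 are shown because they held an E-box, that of Sycp2 because it held none although the gene had 0 counts in WT liver, and both Prdm9 promoters are shown because Prdm9 was read in all 3 tissues and changed in KO testes. Capitals mark the E-box (CACGTG), the E2F core (GCGGGA) and the MYB core (TAACNG), each searched on both strands. No match of these motifs overlapped another in the sequences shown.
Hormad1, chr3:95559427-95559726, plus strand: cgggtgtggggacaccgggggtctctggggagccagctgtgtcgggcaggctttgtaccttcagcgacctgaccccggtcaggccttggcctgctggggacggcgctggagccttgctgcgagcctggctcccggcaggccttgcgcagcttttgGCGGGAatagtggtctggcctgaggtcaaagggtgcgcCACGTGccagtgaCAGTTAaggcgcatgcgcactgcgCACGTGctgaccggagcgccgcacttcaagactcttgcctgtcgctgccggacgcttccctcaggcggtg
Sycp3, chr10:88459337-88459636, plus strand: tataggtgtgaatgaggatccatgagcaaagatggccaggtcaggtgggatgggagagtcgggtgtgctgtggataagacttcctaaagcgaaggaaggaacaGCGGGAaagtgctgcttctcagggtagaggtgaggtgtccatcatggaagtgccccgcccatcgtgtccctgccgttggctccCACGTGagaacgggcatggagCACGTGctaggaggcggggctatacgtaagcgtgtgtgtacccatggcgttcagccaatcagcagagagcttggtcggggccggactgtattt
Sycp1, chr3:102936051-102936350, minus strand: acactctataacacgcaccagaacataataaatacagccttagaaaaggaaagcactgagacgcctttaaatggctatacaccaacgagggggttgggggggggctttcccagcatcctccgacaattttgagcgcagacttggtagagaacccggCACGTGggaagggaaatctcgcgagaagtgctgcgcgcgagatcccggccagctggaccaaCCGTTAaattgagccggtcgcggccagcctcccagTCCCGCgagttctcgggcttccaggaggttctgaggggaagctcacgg
Sycp2, chr2:178407609-178407908, minus strand: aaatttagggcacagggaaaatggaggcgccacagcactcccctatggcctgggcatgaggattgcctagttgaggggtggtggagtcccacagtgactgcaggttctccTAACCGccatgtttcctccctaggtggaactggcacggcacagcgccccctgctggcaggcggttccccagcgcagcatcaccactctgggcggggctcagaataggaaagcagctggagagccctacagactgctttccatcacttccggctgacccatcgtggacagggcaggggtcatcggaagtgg
Prdm9, upstream start, chr17:15564305-15564604, minus strand: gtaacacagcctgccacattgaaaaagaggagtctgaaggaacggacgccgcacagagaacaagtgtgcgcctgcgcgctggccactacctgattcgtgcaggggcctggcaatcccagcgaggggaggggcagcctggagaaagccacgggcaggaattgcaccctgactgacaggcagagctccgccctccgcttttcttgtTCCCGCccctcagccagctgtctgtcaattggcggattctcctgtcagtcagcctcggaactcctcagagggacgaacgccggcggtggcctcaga
Prdm9, downstream start, chr17:15563282-15563581, minus strand: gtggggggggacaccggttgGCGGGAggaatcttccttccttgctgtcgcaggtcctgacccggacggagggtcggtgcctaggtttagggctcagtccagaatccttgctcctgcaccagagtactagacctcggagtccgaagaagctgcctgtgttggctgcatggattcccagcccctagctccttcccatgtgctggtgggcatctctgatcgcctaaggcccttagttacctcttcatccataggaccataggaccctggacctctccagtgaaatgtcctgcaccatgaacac

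The E-box was present in 3 of the 8 genes with a promoter, Hormad1, Sycp3 and Sycp1, and in 7.15% of 32851 RefSeq mouse promoters of the same length. Hormad1 and Sycp3 each had 2 copies. Sycp2, Dmc1 and Syce1, which had at most 1 count in any WT liver library, held no E-box. The E2F core was present in 5 of the 8 genes and in 19.98% of all promoters, and the MYB core in 4 of the 8 and in 23.3%. The CRE (TGACGTCA) was found in none of the 8 and in 1.79% of all promoters. The E-box, the E2F core and the CRE contain a CpG, and the promoters of the 8 genes held 9 to 24 CpG against a median of 7.0 over all promoters. Among the 8987 promoters with 9 to 24 CpG, 10% held the E-box, 29.5% the E2F core, 21.9% the MYB core and 2.85% the CRE. Neither Prdm9 promoter held the E-box. As background, E-box and E2F sequences are bound by a Polycomb complex that keeps many germline genes silent in somatic cells, and MYB sequences by the spermatocyte factor Mybl1. A match is a description of the letters, and binding was not measured.

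In WT animals, 9 of the 10 genes were higher in testes than in liver and all 10 were higher in testes than in cerebellum (limma-voom with TMM scaling, adjusted p under 0.05), where 55.7% and 50.7% of the 21697 genes tested were higher in testes. A higher level in testes was thus common among all genes. The count is a description, since 7 of the 10 passed the filter of 1 CPM in at least 4 WT libraries only through testes, where they are high, and 3 (Sycp1, Mlh3 and Prdm9) passed it without testes. Hormad1 was at 67.0 CPM in WT testes and had 0 counts in all 16 liver and cerebellum libraries. On the CPM scale, set against a floor of 3 counts in the shallowest WT library, it was at least 603-fold higher in testes than in liver and at least 410-fold higher than in cerebellum. Sycp2 and Dmc1 also had 0 counts in the 4 WT liver libraries, which put them at least 2640-fold and at least 108-fold higher in testes. With TMM scaling the bounds for liver were 305-fold for Hormad1, 1330-fold for Sycp2 and 54.7-fold for Dmc1, and that of Hormad1 for cerebellum was 494-fold. Sycp1 had a total of 1 count over the 4 WT liver libraries, and Syce1 had 2.

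Cerebellum differed from liver in which of these genes it contained. Sycp1 was read at 4.08 to 5.66 CPM in WT cerebellum, with 89 to 121 counts per library, and the log2 difference from testes was 4.38 ± 0.280 (SE). Dmc1 had 5 to 12 counts and Sycp2 14 to 22 counts per WT cerebellum library. Meiob showed the opposite order, with 23 to 48 counts per WT liver library and at most 1 count per WT cerebellum library. Mlh3, which also serves general mismatch repair, was read in all tissues, and its log2 difference was 1.75 ± 0.0860 from liver and 1.44 ± 0.0698 from cerebellum.

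Prdm9 was the member with the smallest tissue difference. It was at 7.20 to 7.51 CPM in WT testes, 3.15 to 3.75 CPM in WT liver and 3.76 to 5.01 CPM in WT cerebellum, so that the libraries did not overlap between testes and either somatic tissue on the CPM scale. After TMM scaling its log2 difference was 0.97 ± 0.0927 from cerebellum (adjusted p = 5.72e-07) and 0.13 ± 0.0901 from liver (adjusted p = 0.180), and thus the difference from liver depended on the scaling. Which of its transcripts the counts came from was not tested.

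To compare levels between genes, counts were divided by the length of the longest basic GENCODE transcript and scaled to TPM, the share of each gene in the length-corrected total. In WT testes Syce1 was highest, at 257 ± 5.12 TPM (SD, n = 4), followed by Sycp3 at 131 ± 18.5 TPM and Sycp2 at 96.6 ± 9.26 TPM. Hormad1 was at 83.6 ± 9.58 TPM, and its libraries overlapped those of Sycp2. Spo11 was at 63.8 ± 3.18 TPM and Sycp1 at 47.3 ± 6.17 TPM. The lowest 4 of the order were Mlh3 at 20.97 ± 1.49 TPM, Meiob at 15.2 ± 1.15 TPM, Dmc1 at 10.2 ± 1.18 TPM and Prdm9 at 3.98 ± 0.0763 TPM. Apart from Sycp2 and Hormad1, no neighbours in this order overlapped between libraries.

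**Figure D1:**
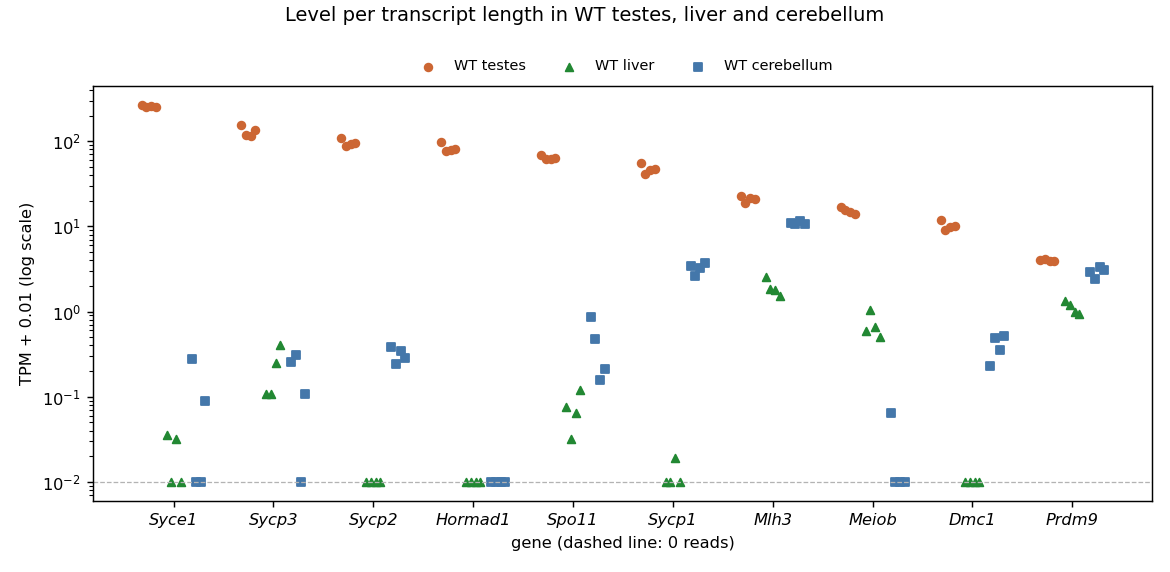
Level per transcript length of each gene in the 4 WT libraries of testes, liver and cerebellum, as TPM plus 0.01 on a log axis, with the dashed line marking 0 reads. Genes run from the highest to the lowest mean in WT testes, from Syce1 at 257 TPM to Prdm9 at 3.98 TPM, and Hormad1 sits on the dashed line in both somatic tissues.

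The question put to the testes libraries was whether loss of Thumpd1 changed the RNA of these genes. Prdm9 was higher in KO testes, and it was the only member of the 10 that passed the test. The other 9 did not pass, and none was called lower. Among the 19329 genes tested, 20.5% were called, 9.74% higher and 10.7% lower, so 1 of 10 is no more than the background share. The median log2 change of the 10 genes was 0.08, with 9 of 10 values above 0, and the median of all genes tested was 0.00. With TMM scaling, edgeR or DESeq2, Sycp2 and Syce1 turned below 0 and 7 of 10 values stayed above it.

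Prdm9 was at 7.20, 7.51, 7.25 and 7.29 CPM in the 4 WT testes libraries and at 9.18, 10.4, 13.2 and 13.5 CPM in the KO libraries. All KO libraries lay above all WT libraries, and the KO values spread over a wider range than the WT values. The log2 change was 0.53 ± 0.119 (SE), with a 95% interval of 0.27 to 0.79 and an adjusted p of 0.0120 from limma-voom. It passed the threshold in all 16 alternative fits, with log2 changes between 0.33 and 0.63. The lowest of these came from leaving out KO replicates 7 and 8 together, the libraries with the highest Prdm9. Spo11, which makes the breaks at the sites that Prdm9 marks, was at 60.8, 56.4, 55.9 and 58.5 CPM in WT and at 60.0, 59.0, 56.4 and 51.4 CPM in KO. The groups overlapped, and its log2 change was −0.08 (95% interval −0.22 to 0.06).

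In the main fit Dmc1 had the second largest change of the 10. It was at 13.7, 10.7, 11.7 and 12.0 CPM in WT and at 15.3, 13.97, 18.1 and 15.3 CPM in KO, with no overlap between the groups. Its log2 change of 0.28 (95% interval 0.07 to 0.48) missed the threshold with an adjusted p of 0.0544. It passed without WT replicate 1 (0.33) and without KO replicate 6 (0.32). It also passed with TMM scaling, edgeR and DESeq2, where adjusted p was 0.0346, 0.0354 and 0.0160 and where 11.2%, 11.6% and 13.0% of all genes were called higher. Dmc1 did not pass with sample quality weights or without KO replicates 7 and 8, and its lowest change over all fits was 0.20. Prdm9 and Dmc1 were the 2 members of 10 with all KO libraries above all WT libraries in CPM, a pattern that 18.8% of all genes tested showed. Meiob, the single-stranded DNA binding partner in strand exchange, was at 15.5, 14.5, 13.9 and 13.4 CPM in WT and at 16.6, 15.7, 16.9 and 15.0 CPM in KO. These values overlapped, and the log2 change was 0.05 (95% interval −0.10 to 0.21).

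The axis protein gene Sycp3 was at 94.9, 73.4, 72.2 and 84.5 CPM in WT testes and at 113, 106, 92.0 and 86.1 CPM in KO testes. The log2 change was 0.26 (95% interval 0.04 to 0.49), with an adjusted p of 0.0855. Chpt1, the phospholipid synthesis gene that shares exonic bases with Sycp3 on the opposite strand, moved the other way, from 73.9 ± 2.72 to 62.8 ± 5.15 CPM (log2 change −0.28, adjusted p = 0.0166). The part of shared reads in the Chpt1 value was not tested. Sycp2 was at 326, 267, 284 and 295 CPM in WT and at 335, 320, 277 and 285 CPM in KO. Hormad1 was at 77.0, 62.3, 62.9 and 65.9 CPM in WT and at 78.5, 77.4, 71.7 and 63.8 CPM in KO. Both genes overlapped between the groups, with log2 changes of 0.09 (95% interval −0.06 to 0.23) and 0.08 (95% interval −0.10 to 0.26).

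Sycp1, the transverse filament gene, was at 99.9, 74.9, 84.1 and 86.1 CPM in WT and at 113, 103, 84.5 and 81.8 CPM in KO. Syce1 was nearly level in the WT libraries, at 201, 197, 201 and 199 CPM, while the KO libraries fell on both sides of them at 225, 227, 192 and 178 CPM. Their log2 changes were 0.12 (95% interval −0.13 to 0.36) and 0.07 (95% interval −0.09 to 0.22). Mlh3, the crossover gene, was at 64.2, 55.1, 61.9 and 62.0 CPM in WT and at 67.3, 68.1, 62.4 and 64.8 CPM in KO, which overlapped, with a log2 change of 0.07 (95% interval −0.07 to 0.21). The 95% interval included 0 for 7 of the 10 genes, and the highest upper bound among these was 0.36, for Sycp1.

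**Figure D2:**
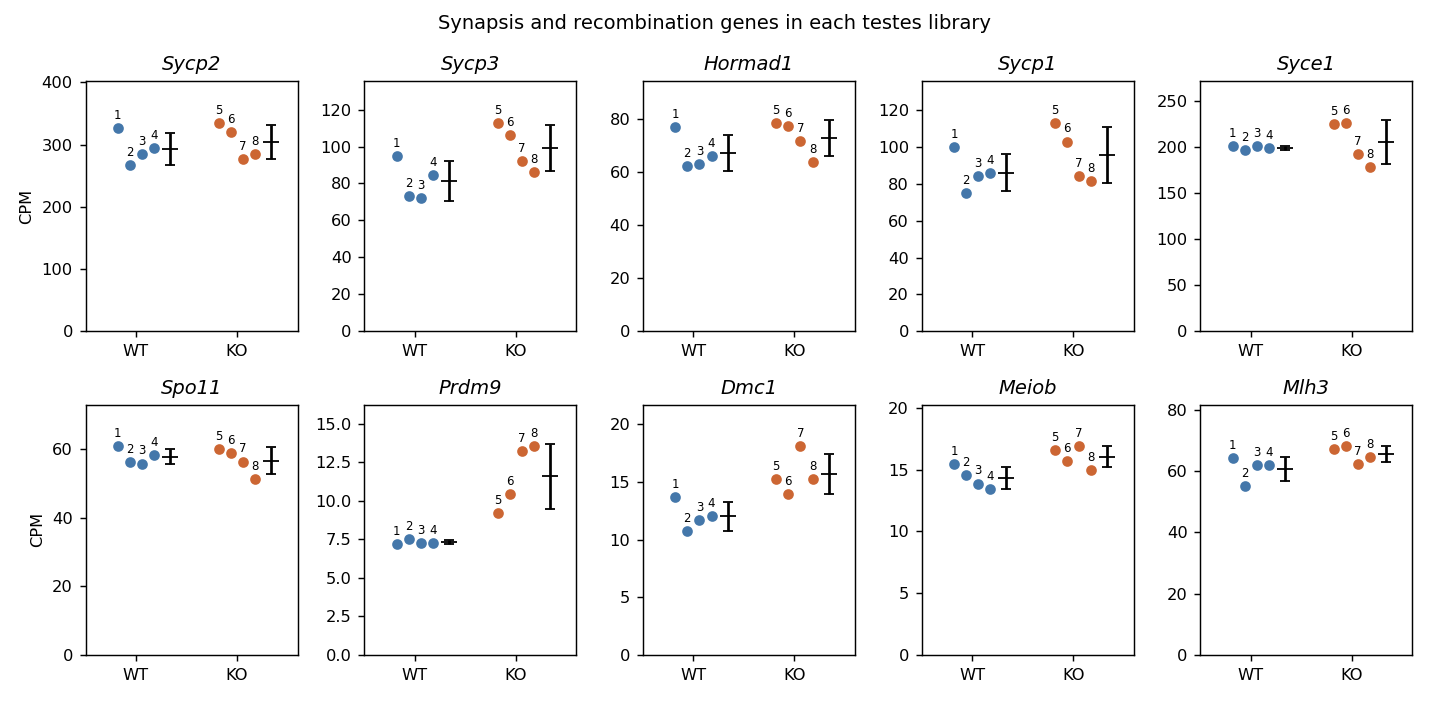
CPM of each gene in the 8 testes libraries, WT in blue and KO in orange, with replicate numbers beside the points and the mean ± SD as black bars (n = 4 per group). Axes start at 0 and differ between panels. Prdm9 rose from 7.20 to 7.51 CPM in WT to 9.18 to 13.5 CPM in KO, and KO replicates 5 and 6 lie above 7 and 8 for Sycp1, Sycp2, Sycp3 and Syce1.

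The KO libraries themselves fell apart along these genes. Both of KO replicates 5 and 6 were above both of 7 and 8 for 7 members (Sycp1, Sycp2, Sycp3, Syce1, Spo11, Hormad1 and Mlh3), below them for 2 (Prdm9 and Dmc1), and mixed for Meiob. The same split was common among the 19329 genes tested, with 29.6% higher and 32.3% lower in both of 5 and 6 than in both of 7 and 8. Relative to the WT mean, Sycp3 stood at 1.39 and 1.31 in KO replicates 5 and 6 and at 1.13 and 1.06 in 7 and 8. Prdm9 stood at 1.26 and 1.42 in the former and at 1.81 and 1.85 in the latter.

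Several marker lists, though not all, were also split between these libraries. Among all genes tested, 9.74% were called higher and 10.7% lower, the shares against which the list counts below stand. The lists were chosen with earlier results of these data known. Summed spermatogonial markers were at 206 and 215 CPM in KO replicates 5 and 6 and at 293 and 266 CPM in 7 and 8, against 189 to 212 CPM in WT, and 2 of the 13 markers tested were called higher (Zbtb16 and Lin28a) and none lower. The most abundant members over the 8 testes libraries were Kit, a receptor of differentiating spermatogonia, with a log2 change of 0.00 (adjusted p = 0.991), and Etv5, a factor of stem cell renewal, with 0.32 (adjusted p = 0.0737). Sertoli cell markers summed to 1546, 1595, 2229 and 1689 CPM in KO and to 1201 to 1418 CPM in WT, and 10 of 10 were called higher, with Clu at a log2 change of 0.46 and Amhr2 at 0.50. Pachytene markers summed to 5249, 5224, 4779 and 4796 CPM in KO and to 5236 to 5531 CPM in WT, with 2 of 12 called lower and the most abundant, Ldhc and Hspa2, not called. Round spermatid markers had 4 of 10 called lower, Tssk2 among them (log2 change −0.24) and Spata16 not (0.05). Elongating spermatid markers had 6 of 10 called lower, with Prm1 and Prm2, the protamines of sperm chromatin, at −0.27 and −0.28, and summed to 13202, 13005, 10585 and 11381 CPM in KO against 14423 to 15111 CPM in WT. Among Leydig cell markers 2 of 7 were called higher (Hsd3b1 and Hsd17b3), with the most abundant, Insl3 and Cyp17a1, at 0.14 and −0.17, and among macrophage markers 1 of 6 was (Mrc1, 0.35). Limma called 0 of 5 peritubular myoid markers and 0 of 5 endothelial markers, with 1 and 2 of them at an unadjusted p under 0.05. In KO replicates 5 to 8 the Leydig sums were 1005, 1017, 1578 and 952 CPM, with replicate 7 highest and 8 lowest, against 1048 to 1140 CPM in WT. Myoid sums were 116, 117, 159 and 124 CPM against 102 to 124 CPM in WT, and macrophage sums 76.0, 77.5, 102 and 86.1 CPM against 64.1 to 72.7 CPM. Endothelial sums were 30.6, 28.7, 38.3 and 37.1 CPM against 25.6 to 29.0 CPM in WT. None of these lists had a marker at 0.

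The marker calls depended in part on KO replicates 7 and 8. Without these 2 libraries, 1804 of all 18917 genes tested were called higher (9.54%) and 1828 lower. With both left out, 10 of 10 Sertoli cell markers were again called higher, with a median log2 change of 0.31 in place of 0.48, and 5 of 10 elongating spermatid markers were called lower, Prm1 and Prm2 no longer among them. Round spermatid calls dropped from 4 lower to 1 lower (Tssk2) and 1 higher (Spata16), and pachytene calls became 1 lower (Aurkc) and 1 higher (Clgn). Of the spermatogonial markers Zbtb16 was called higher and Kit lower, and the median of the list was 0.01 in place of 0.21. Leydig cell markers had 4 of 7 called lower beside the 2 called higher, and the macrophage call was lost. The part of these cell type differences in the values of the 10 genes was not tested.

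**Figure D3:**
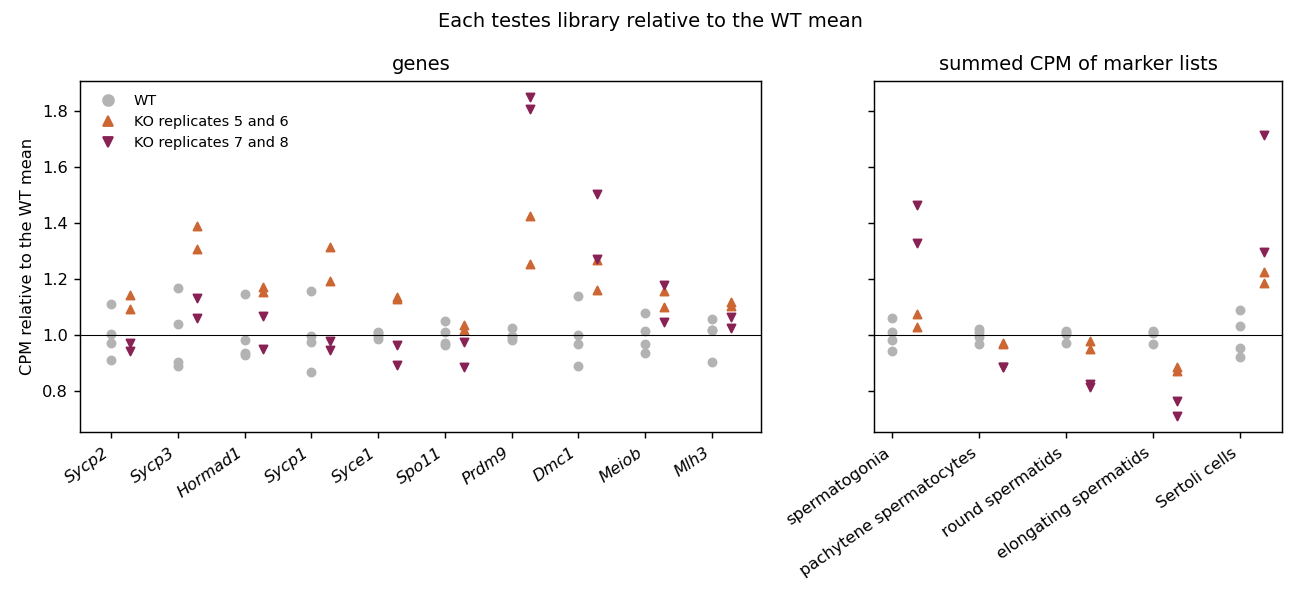
CPM of each of the 10 genes and summed CPM of 5 marker lists in every testes library, divided by the mean of the 4 WT libraries. Orange upward triangles are KO replicates 5 and 6, purple downward triangles KO replicates 7 and 8, and grey points WT. Prdm9 (1.81 and 1.85) and the spermatogonial list (1.465 and 1.329) are highest in KO replicates 7 and 8. The Sertoli cell list (1.713 and 1.298) is also highest there, and the elongating spermatid list is lowest (0.710 and 0.764).

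The member count changed with sample quality weights, which also differed among the other libraries, and without KO replicates 7 and 8. Leaving out KO replicate 7 or 8 alone kept the count at 1. With sample quality weights, 6 of 10 members were called higher (Sycp1, Sycp2, Sycp3, Syce1, Hormad1 and Prdm9) while 15.6% of all genes were called higher. With KO replicates 7 and 8 both left out, a fit chosen after the data were seen, 5 of 10 were called higher (Sycp1, Sycp2, Sycp3, Syce1 and Prdm9) while 9.54% of all genes were called higher, and all 10 values were above 0. In that fit the log2 change was 0.43 for Sycp3, 0.32 for Sycp1, 0.20 for Syce1 and 0.19 for Sycp2. With all 8 libraries weighted alike, none of these 4 synaptonemal complex genes passed.

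Of 54 other meiosis genes listed by role, 53 passed the filter on low values, with Mei4 below it, and 5 were called higher and 4 lower, with a median log2 change of 0.03. Against the 20.5% of all genes called, 9 of 53 is no more than the background share. Among axis and cohesin genes 1 of 6 was called: Rec8, the meiotic cohesin subunit, was lower (log2 change −0.21, adjusted p = 0.0265). The central element was split. The Six6os1 gene (4930447C04Rik), whose protein binds Syce1, was higher at 0.37 (adjusted p = 0.0161), although 192 of its exonic bases overlap Six6 on the opposite strand, and Syce3 was lower at −0.43 (adjusted p = 0.0204). Without KO replicates 7 and 8 the Syce3 change was −0.21 and was not called (adjusted p = 0.0568). Break formation genes had 0 of 6 called in the main limma-voom fit, with 1 at an unadjusted p under 0.05. The same gene was called by edgeR and by DESeq2. It was also called by limma-voom with TMM scaling, with sample quality weights, over all 24 libraries and without KO replicate 5. That gene, Zcwpw1, the reader of the histone marks that Prdm9 writes, had 21.7 ± 1.97 CPM in WT testes against 27.1 ± 2.26 CPM in KO testes (log2 change 0.23, adjusted p = 0.0567).

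Strand exchange genes had 2 of 14 called. Brca2, which loads strand-exchange recombinases onto DNA, was higher at 0.21 (adjusted p = 0.0169), a call lost with TMM scaling, where the change was 0.13, and with edgeR. Rad51ap2 was higher at 0.41 (adjusted p = 0.0448), and the call was lost in 7 of 16 alternative fits: with no filter, without WT replicate 2, 3 or 4 and without KO replicate 5, 6 or 7. Crossover genes had 2 of 12 called, both lower: Mus81, a structure-specific nuclease, at −0.28 (adjusted p = 0.0128) and Prr19 at −0.28 (adjusted p = 0.0163). The telomere attachment genes tie chromosome ends to the nuclear envelope. They had 0 of 6 called in the main limma-voom fit and 0 of 6 values above 0. Of these, 1 (Ccdc155) had an unadjusted p under 0.05. DESeq2 and limma-voom with sample quality weights called Ccdc155, and edgeR did not. Meiotic entry genes had 2 of 5 called, with Gm4969, the gene of Meiosin, higher at 0.47 (adjusted p = 0.0303) and Dazl, a germ cell RNA-binding protein, higher at 0.31 (adjusted p = 0.0154). The Gm4969 call was lost without KO replicates 7 and 8, where the change was 0.21 (adjusted p = 0.0751), and it passed in 7 of 16 alternative fits. Stra8, the partner of Meiosin, was at 0.26 (adjusted p = 0.0621) and was called with TMM scaling, by edgeR and by DESeq2. It was also called with sample quality weights and without KO replicate 5. Of the 9 called genes, Mus81 passed in all 16 alternative fits. Without WT replicate 3 it was the only call, without WT replicate 4 there were 2 calls (Mus81 and Prr19), and without KO replicate 7 there were 5. With KO replicates 7 and 8 both left out there were 10 calls, which lacked Syce3 and Gm4969 and had Smc3, Tex15 and Cntd1, all higher, in addition. Exonic bases also overlapped genes on the opposite strand for Cntd1 (3186), Zcwpw1 (468), Mus81 (173) and Brca2 (41). The part of shared reads in these values was not tested.

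**Figure D4:**
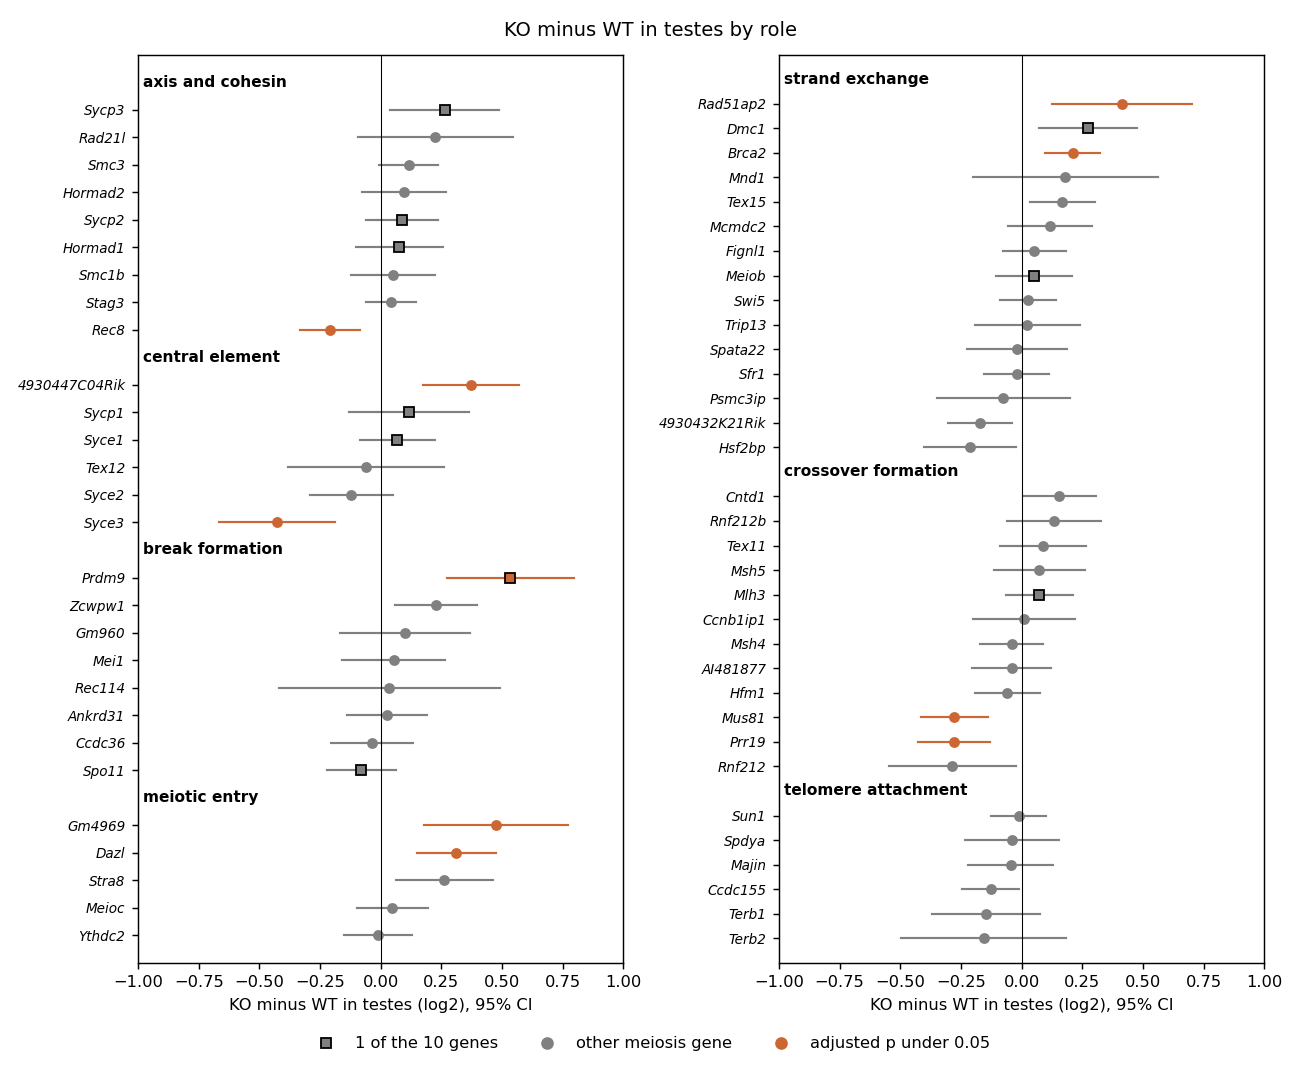
KO minus WT log2 change in testes for the 10 genes (squares) and 51 of the 53 other tested meiosis genes (circles) by role, with 95% confidence intervals as bars, from the limma-voom fit on 4 libraries per group. Orange marks an adjusted p under 0.05, and since the intervals are not adjusted for the number of genes, a grey bar may miss 0. Prdm9 at 0.53 is the only orange square.

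In the somatic tissues few members were expressed enough to test. In liver, 3 of the 10 passed the filter and 0 were called by limma-voom or edgeR, with 1 (Meiob) at an unadjusted p under 0.05, against 5.91% of 12816 genes called. Meiob was at 0.837, 1.55, 1.15 and 0.852 CPM in WT liver and at 1.55, 1.54, 1.98 and 2.28 CPM in KO liver. The highest WT library lay within the KO range, and the log2 change was 0.71 (95% interval 0.19 to 1.24, adjusted p = 0.104). Hagh, the next gene downstream of Meiob, was at 173 ± 27.5 CPM in WT liver and 176 ± 9.50 CPM in KO liver. Prdm9 and Mlh3 had liver changes of −0.12 (95% interval −0.49 to 0.25) and 0.02 (95% interval −0.27 to 0.31).

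In cerebellum, 3 of the 10 passed the filter and 0 were called by limma-voom or edgeR, with 1 (Sycp1) at an unadjusted p under 0.05, against 6.44% of 16225 genes called. Sycp1 was at 5.24, 4.08, 4.85 and 5.66 CPM in WT and at 3.39, 5.44, 3.12 and 3.84 CPM in KO. Apart from KO replicate 6, the KO libraries were below the WT libraries, and the log2 change was −0.37 (95% interval −0.73 to −0.02, adjusted p = 0.177). Without KO replicate 6 it was −0.51 with an adjusted p of 0.0458. Prdm9 and Mlh3 had cerebellar changes of −0.01 (95% interval −0.33 to 0.30) and 0.04 (95% interval −0.07 to 0.15).

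Prdm9 and Mlh3 passed the filter in all 3 tissues, so their KO effects were compared directly. The Prdm9 effect was larger in testes than in liver by 0.58 ± 0.199 on the log2 scale (adjusted p = 0.0469), where 15.9% of 11112 genes differed, and the call was lost with the replicate number as a block (adjusted p = 0.0751). It was also lost when any of 18 of the 24 libraries was left out, with differences between 0.41 and 0.59 and adjusted p-values between 0.0507 and 0.142 in those fits. It remained past the threshold without liver KO replicate 5 or 7, cerebellum WT replicate 2, cerebellum KO replicate 5, or testes KO replicate 5 or 6. Without testes KO replicates 7 and 8 together it was 0.39 (adjusted p = 0.220). Against cerebellum the difference was 0.52 ± 0.203 (adjusted p = 0.0852), where 14.5% of genes differed. Without cerebellum KO replicate 5 or testes KO replicate 5, the difference from cerebellum passed, at 0.65 and 0.61. The Mlh3 effect in testes differed by −0.05 (95% interval −0.32 to 0.22) from that in liver and by −0.07 (95% interval −0.30 to 0.16) from that in cerebellum.

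Because Thumpd1 acts on leucine and serine tRNAs, the coding sequences of the 10 genes were scored for these codons in the longest basic GENCODE transcript. The score pools all codons of both amino acids, and it does not separate those at which the study reported ribosome stalling. Leucine and serine codons together made up 12.2% of Prdm9, the lowest of the 10, and 19.6% of Meiob, the highest. The median of the 10 genes was 18.7%, and that of 21521 coding genes was 18.3%, with quartiles at 16.1% and 20.9%. On this combined share none of the 10 lay above the upper quartile, and Prdm9, Dmc1 (13.2%) and Sycp3 (15.0%) lay below the lower. Scored apart, 3 of the 10 lay above the median for leucine (1 above the upper quartile) and 5 for serine (3 above it). These shares describe the sequences, and translation was not measured in these libraries.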

How the data were processed

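Total RNA of mouse testes, liver and cerebellum (4 WT and 4 KO libraries each) was sequenced by the authors as stranded, rRNA-depleted, paired-end libraries. Reads were aligned with STAR to mm10 with GENCODE M21, and the authors deposited RSEM expected counts per gene in 1 table of 24 columns and 55450 genes. Tool versions and the strand setting are not given in the sources used here. The members and all gene lists were chosen with earlier results of these data known. Groups came from the sample labels. The study calls its replicates biological, and nothing in the labels says which libraries came from the same mouse.

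Genes at 1 CPM or more in at least 4 libraries of a tissue were kept. KO was compared with WT by limma-voom (limma 3.58.1, R 4.3.3) with quantile normalization, as in the study's methods, and Benjamini-Hochberg adjustment over all genes tested, two-sided at 0.05. WT tissues and KO effects between tissues were compared by limma-voom with TMM factors from edgeR 4.0.16, on 21697 genes at 1 CPM in at least 4 WT libraries and on 11112 genes that passed in all tissues. As alternatives, edgeR's quasi-likelihood test and DESeq2 1.42.0 were run on counts rounded to whole numbers, as between 12.3% and 16.6% of expected counts above 0 differed from a whole number by over 0.001. Intervals are 95% intervals of the fit, and floors of 3 counts cover counting error only. The named genes were the 10 members, Thumpd1, up to 3 called genes per role and direction, the 2 most abundant genes per marker list, and the 5 genes whose testes profile was most like that of the members. Zcwpw1, Stra8, Mei4, Ccdc155, Smc3, Tex15, Cntd1, Chpt1, Hagh and the called genes of the marker lists were named after their values were seen. On simulated counts with 200 genes changed by 1 log2 unit, the testes fit recovered 92.5%, the liver fit 84% and the cerebellum fit 93% at 5.08% to 8.42% false calls. Every member change in KO testes was smaller than 1 log2 unit. The simulation did not include the split of the KO libraries, so these rates do not give the power for the members. No 2 libraries of a group were duplicates, the lowest chi-square per gene between replicates being 2.23. Same-numbered libraries of different tissues did not all deviate together (correlations −0.185 to 0.233, with 10 of 24 highest for the same number), so the numbers were not taken to pair samples in the main fits. These correlations cannot exclude pairing, and a block by replicate number was fitted as an alternative. Of the listed meiosis genes, 2 were counted in the totals but are not reported singly here. Figures were drawn with matplotlib 3.10.9.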

Additional observations from a re-analysis of the deposited data

Results flagged for a closer look

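Prdm9 in cerebellum had 1 KO library far from the others of its group. KO replicate 5 was at 5.94 CPM and the other 3 between 3.93 and 4.26 CPM, so that the gap to the nearest library took 0.835 of the range of the group, above Dixon's 95% critical value for 4 samples. Of 32 groups of member values examined this was the only one so marked, and chance alone marks about 1 in 20. The cause was not tested.

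The KO effect on Prdm9 differed between testes and liver by 0.58 on the log2 scale in the interaction test, with all 4 KO libraries above all 4 WT libraries in testes and 2 of 4 KO libraries above the WT mean in liver. This difference rested on an adjusted p of 0.0469 from limma-voom, and was lost in 18 of 24 fits that each left out 1 library and without testes KO replicates 7 and 8 (0.39, adjusted p = 0.220).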

How the results depend on the processing

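In KO testes the count of members called was 1, and it was 2 with edgeR, DESeq2 and TMM, 6 with sample quality weights, 5 with KO replicates 7 and 8 both left out (chosen after seeing the data), and 1 to 2 when 1 library was left out. All genes called numbered 6107 with quality weights and 1711 to 4913 with 1 library left out, against 3957. Other meiosis genes called numbered 17 with quality weights and 1 to 10 with 1 library left out, against 9. Sycp2 and Syce1 changed sign with edgeR (−0.0063 and −0.018), DESeq2 (−0.0098 and −0.022), TMM (−0.0093 and −0.026) and 1 fit over all 24 libraries (−0.021 and −0.037), and Spo11 with KO replicates 7 and 8 both left out (0.0090). Without those 2 libraries, 0 members were called for a difference between testes and liver effects, against 1, and the Mlh3 difference turned to 0.048 from liver and 0.025 from cerebellum. In cerebellum Prdm9 turned to 0.0057 with edgeR. With 1 library left out, the cerebellar change of Prdm9 ranged from −0.14 to 0.042, the liver change of Prdm9 from −0.21 to 0.052, the liver change of Mlh3 from −0.083 to 0.11, the Mlh3 difference between testes and liver effects from −0.14 to 0.049, and the members called in cerebellum from 0 to 1. With the replicate number as a block, the members called for a difference between testes and liver effects numbered 0 against 1, and it was 0 to 1 with 1 library left out, as for testes against cerebellum. The block changed no other call: 9 and 10 members stayed higher in WT testes than in liver and cerebellum. WT and KO libraries of a tissue share no replicate number, so no block could be fitted within a tissue. The causes were not tested. At 3 counts per library the floor was 0.0792 to 0.183 CPM, and levels below the floor of a library rest on fewer than 3 counts.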

Other observations

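Genes outside all lists whose profile over the 8 testes libraries was most like the mean standardised log2 CPM of the 10 members were Npm1, a nucleolar chaperone (Pearson r = 0.982), Ctdspl2 (0.980), Ppig (0.976), Naa15, a subunit of the N-terminal acetyltransferase NatA (0.975), and Ppp3ca, a catalytic subunit of calcineurin (0.974). These r values describe 8 libraries that share composition and depth effects, and the 5 genes were picked as the highest of all. Their log2 changes in KO testes lay between 0.07 and 0.18, and limma-voom called none of the 5. The member mean itself was 1.00 and 0.68 in KO replicates 5 and 6 and −0.08 and −0.48 in 7 and 8, with WT libraries from −0.88 to 0.43. Each member's own r with that mean ran from 0.96 for Sycp3 and 0.95 for Sycp1 and Hormad1 down to 0.03 for Prdm9, and the mean contains the gene itself in each case.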
